A study of Rattus norvegicus with 6 samples.

Results

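Genes of innate inflammatory signaling were followed through the left atria of 6 rats, from the secreted ligands to their receptors, the proteins that relay the signal inside the cell, and the adhesion molecules that hold leukocytes on the vessel wall. The set was a list of 41 genes, each read from the probe set that carries its symbol alone in the array annotation. Of these, 37 reached a log2 signal above 5 on at least 1 array and are described, among 11237 genes in all. They were 22 of 25 ligands, 8 of 8 receptors, 3 of 4 intracellular signaling genes and 4 of 4 adhesion molecules, and each of the 37 had 1 probe set. The chemokines Ccl22 (highest value 4.92) and Cxcl2 (4.53) and the cytokine Il1a (3.95) stayed below that level on all 6 arrays. Nlrp3, the sensor of an inflammasome, had no probe set under its symbol alone. Just inside the limit lay Sele, above 5 on 1 array, Il10 on 2, Ccl11 on 4 and Ccl20 on 5, while the other 33 exceeded it on all 6.

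The 6 animals were adult male Sprague-Dawley rats that carried an atrial electrode, were awake during pacing and all drank atenolol, a beta blocker that slows conduction to the ventricles. For 48 hours, 3 rats underwent rapid atrial pacing (RAP, cycle length 70 ms) and 3 underwent control pacing (Con, 140 ms), so the controls were paced too and the ventricular rate of both groups was similar. Each RAP rat and its control were operated on and paced together. The labels give only replicate numbers within each group. Rats of equal number were taken as pairs 1 to 3, a match that was not verified and that a check given with the processing did not support. RNA from the left atrium of each rat went onto 1 whole-transcript array, for pairs whose RNA was of high quality only. Values are log2 signals, on which a difference of 1 is a doubling, and a change is RAP minus Con averaged over the 3 pairs, with its standard error (SE) from limma's fit of all probe sets with the pair as a block. A gene is said to have fallen or risen when it passed both thresholds of the study's methods, a p under 0.05 before any adjustment and more than a 1.3-fold difference.

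Chemokines are small secreted proteins that direct leukocytes along a gradient. Ccl2 and Ccl7 call monocytes through Ccr2, Cxcl1 calls neutrophils, and Ccl21 guides dendritic cells and T cells into lymphatic vessels and lymph nodes. Toll-like receptors recognize microbial products and molecules from injured cells, and they share with the interleukin-1 receptor the adaptor Myd88, downstream of which NF-kappaB is released from its inhibitor Nfkbia. In the heart these genes are active in resident macrophages, fibroblasts, endothelium and recruited leukocytes.

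The windows of 250 bases before the start are given for 6 members that recur in the results. Cxcl16, Tlr4 and Ccl21 fell with RAP, while Ccl7, Cxcl1 and Vcam1 were high together in the left atrium of a single control rat. No link between the windows and the values was tested. These 6 were chosen after the values were seen. The sequences are RefSeq's, on build GRCr8, printed 5′ to 3′ on the gene's own strand, with a match to the kappaB site (the DNA element bound by NF-kappaB) or to TGANTCA, the AP-1 site, in capitals.

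Cxcl16, chr10:55669951-55670200, minus strand: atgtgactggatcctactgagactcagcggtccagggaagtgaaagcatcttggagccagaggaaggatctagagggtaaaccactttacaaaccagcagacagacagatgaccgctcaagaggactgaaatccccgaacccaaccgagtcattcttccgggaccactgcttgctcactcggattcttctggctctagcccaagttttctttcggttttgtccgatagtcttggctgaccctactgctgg

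Tlr4, chr5:85160997-85161246, plus strand: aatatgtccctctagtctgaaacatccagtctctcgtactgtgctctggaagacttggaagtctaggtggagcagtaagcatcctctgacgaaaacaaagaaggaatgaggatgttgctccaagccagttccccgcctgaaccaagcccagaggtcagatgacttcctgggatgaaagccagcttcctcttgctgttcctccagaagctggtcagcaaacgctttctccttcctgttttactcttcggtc

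Ccl21, chr5:61777516-61777765, minus strand: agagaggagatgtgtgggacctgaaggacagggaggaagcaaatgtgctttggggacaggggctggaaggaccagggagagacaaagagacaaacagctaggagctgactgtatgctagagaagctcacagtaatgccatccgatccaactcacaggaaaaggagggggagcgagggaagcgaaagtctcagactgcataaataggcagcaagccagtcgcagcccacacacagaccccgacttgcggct

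Ccl7, chr10:67513845-67514094, plus strand: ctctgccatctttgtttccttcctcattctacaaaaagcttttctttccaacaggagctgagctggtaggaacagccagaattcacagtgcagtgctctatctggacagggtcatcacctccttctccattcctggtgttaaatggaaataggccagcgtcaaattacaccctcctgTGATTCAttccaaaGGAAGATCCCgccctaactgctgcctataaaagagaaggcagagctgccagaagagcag

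Cxcl1, chr14:17479322-17479571, minus strand: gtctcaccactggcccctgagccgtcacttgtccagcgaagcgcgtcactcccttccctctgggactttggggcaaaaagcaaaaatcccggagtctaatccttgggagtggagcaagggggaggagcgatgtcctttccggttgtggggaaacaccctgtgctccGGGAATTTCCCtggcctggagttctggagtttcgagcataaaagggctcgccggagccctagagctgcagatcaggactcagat

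Vcam1, chr2:206742784-206743033, minus strand: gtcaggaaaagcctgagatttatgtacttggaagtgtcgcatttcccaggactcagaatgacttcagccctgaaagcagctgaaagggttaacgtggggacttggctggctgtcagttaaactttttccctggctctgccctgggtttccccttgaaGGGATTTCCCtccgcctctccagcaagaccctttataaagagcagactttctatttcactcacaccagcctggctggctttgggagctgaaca

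On either strand, the Ccl7 window held a kappaB match 59 to 50 bases before the start and an AP-1 match 73 to 67 bases before it. Cxcl1 held a pair of overlapping kappaB matches between 84 and 74 bases before its start, and Vcam1 held one from 93 to 84 bases before its own. The windows of Cxcl16, Tlr4 and Ccl21 held neither set of letters, which says nothing of NF-kappaB at these genes. Of other members high in the same control rat, not printed here, Tlr2 held a kappaB match and Cxcl12, Cxcl13, Il1b and Ccr2 held none. The printed windows thus do not stand for all members high there. Of the 34 members in the promoter table, kappaB matches were in the windows of 8, or 23.5%: Ccl7, Ccl20, Cxcl1, Cxcl2, Tlr2, Il1r1, Nfkbia and Vcam1. Of all 33469 windows of the same length, 6.33% held one. The AP-1 letters were in 4 of the 34 (11.8%) and in 6.34% of all windows. Ccl2, Ccl3, Ccl4, Ccl5, Ccl11, Il10 and Selp were not in the table.

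Cxcl16, Tlr4 and Ccl21 fell with RAP and 0 members rose, so that 3 of 37 members passed the thresholds, beside 6.39% of all genes in either direction, 3.45% lower and 2.94% higher. Those that fell were 2 of 22 ligands and 1 of 8 receptors, with 0 of 3 intracellular signaling genes and 0 of 4 adhesion molecules. By limma, 0 members and 0 genes had a Benjamini-Hochberg adjusted p under 0.05, the lowest adjusted p was 0.756, and an unadjusted p under 0.05 was found for 3 of 37 members and 6.89% of all genes. By the methods' paired t-test 0 members passed both thresholds. Its unadjusted p was under 0.05 for 3 members with smaller changes, namely Ccl17, Cxcr4 and Cx3cr1, beside 5.67% of all genes, and 0 genes passed after Benjamini-Hochberg adjustment. The number of members that fell was 0 without pair 1, 1 without pair 2 and 10 without pair 3, where 1.46%, 3.36% and 22.1% of all genes passed in either direction. In fits without the pairing, 6 members fell without Con 3 and 1 without RAP 1, where 15.4% and 7.50% of all genes passed. With 3 pairs, an exact sign test cannot give a two-sided p below 0.25, and with 3 arrays against 3 an exact permutation test cannot go below 0.1.

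Cxcl16 is a chemokine that sits in the cell membrane, binds the receptor Cxcr6 on T cells once shed, and also takes up oxidized lipoprotein as a scavenger receptor. Its log2 signal was 10.72, 10.56 and 10.67 in controls 1, 2 and 3 and 9.83, 9.52 and 10.45 in RAP 1, 2 and 3. All 3 RAP atria lay below all 3 controls, which were close to each other (10.65 ± 0.08, SD, n = 3), whereas the RAP atria were spread (9.94 ± 0.48, SD, n = 3). The change was -0.72 (SE 0.21, 95% confidence interval -1.25 to -0.18, adjusted p = 0.756 by limma), a 1.64-fold lower signal. It was -0.88, -1.04 and -0.22 in pairs 1, 2 and 3. Cxcl16 no longer passed by the methods' t-test, without pair 1 (-0.63) or without pair 2 (-0.55), nor, in fits without the pairing, when Con 1 (-0.68), RAP 1 (-0.66) or RAP 2 (-0.51) was left out.

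Tlr4, the receptor through which cells sense bacterial endotoxin, had log2 signals of 7.64, 7.74 and 7.41 after control pacing and 6.93, 6.56 and 7.16 after RAP. Here too the groups did not overlap, with the highest RAP atrium, RAP 3, below the lowest control, Con 3. The change was -0.72 (SE 0.21, 95% confidence interval -1.27 to -0.16, adjusted p = 0.756 by limma), 1.64-fold lower, and the group means were 7.60 ± 0.17 for Con and 6.88 ± 0.30 for RAP (SD, n = 3). By pair it was -0.71, -1.18 and -0.26, largest in pair 2. The call was kept with each single array left out in turn without the pairing, and it was lost by the methods' t-test, without pair 1 (-0.72) and without pair 2 (-0.48).

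Ccl21, the ligand of Ccr7 and a product of lymphatic endothelium, stood at 7.79, 8.01 and 7.998 in the controls and at 6.001, 7.81 and 7.38 in RAP 1, 2 and 3. RAP 1 was far below the other 5 atria, and RAP 2 lay just above Con 1, so the groups overlapped. The change of -0.87 (SE 0.33, 95% confidence interval -1.74 to -0.0002, adjusted p = 0.756 by limma) passed by a narrow margin, and by pair it was -1.79, -0.20 and -0.61. Markers of lymphatic endothelium (5 of 6 measured) had a mean deviation from their means over the 6 arrays of -0.08 in RAP 1 and ranged from -0.04 to 0.23 in Con and from -0.19 to -0.06 in RAP. Their part in the Ccl21 values was not tested. Ccl21 did not pass under 15 of the 19 alternative analyses, among them the one without pair 1 (-0.41), the one without pair 3 (-0.99), and the fits without the pairing unless RAP 2 was left out (-1.24).

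**Figure D1:**
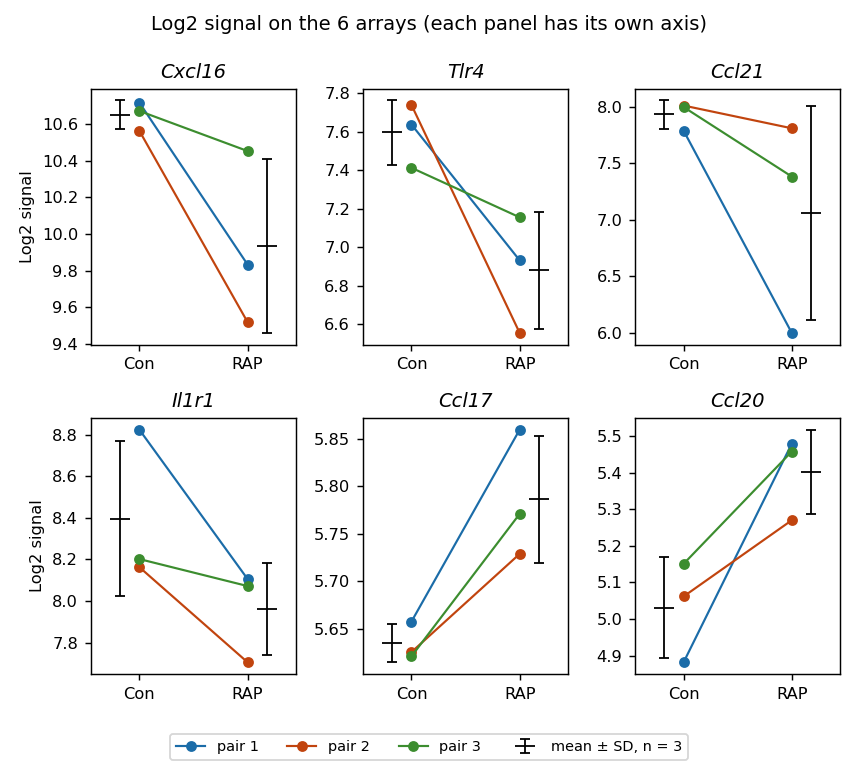
Log2 signal of 6 members on the 6 arrays, with lines joining the rats of a pair and bars giving the mean ± SD of 3 arrays beside each group. The RAP values of Cxcl16, Tlr4 and Il1r1 all lie below the controls, those of Ccl17 and Ccl20 all lie above them, and those of Ccl21 overlap because RAP 2 (7.81) lies above Con 1 (7.79).

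Non-overlapping groups were found for 5 of 37 members, beside 15.4% of all genes, 7.85% with RAP lower and 7.57% with RAP higher. Beside Cxcl16 and Tlr4 these were Il1r1, Ccl17 and Ccl20. Il1r1, the signaling receptor of interleukin-1, read 8.82, 8.16 and 8.20 in Con and 8.11, 7.71 and 8.07 in RAP, and its change of -0.43 (SE 0.17, 95% confidence interval -0.87 to 0.00085) fell just short of the threshold on p. Ccl20, the ligand of Ccr6, read 4.88, 5.06 and 5.15 in Con and 5.48, 5.27 and 5.46 in RAP. Every RAP atrium was above every control, and the change of 0.37 (SE 0.15, 95% confidence interval -0.011 to 0.75), a 1.29-fold difference near the lower limit of signal, also fell short. Ccl17, a ligand of Ccr4, read 5.66, 5.63 and 5.62 in Con and 5.86, 5.73 and 5.77 in RAP, and its difference of 0.15 (SE 0.13) was the smallest of the 5.

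**Figure D2:**
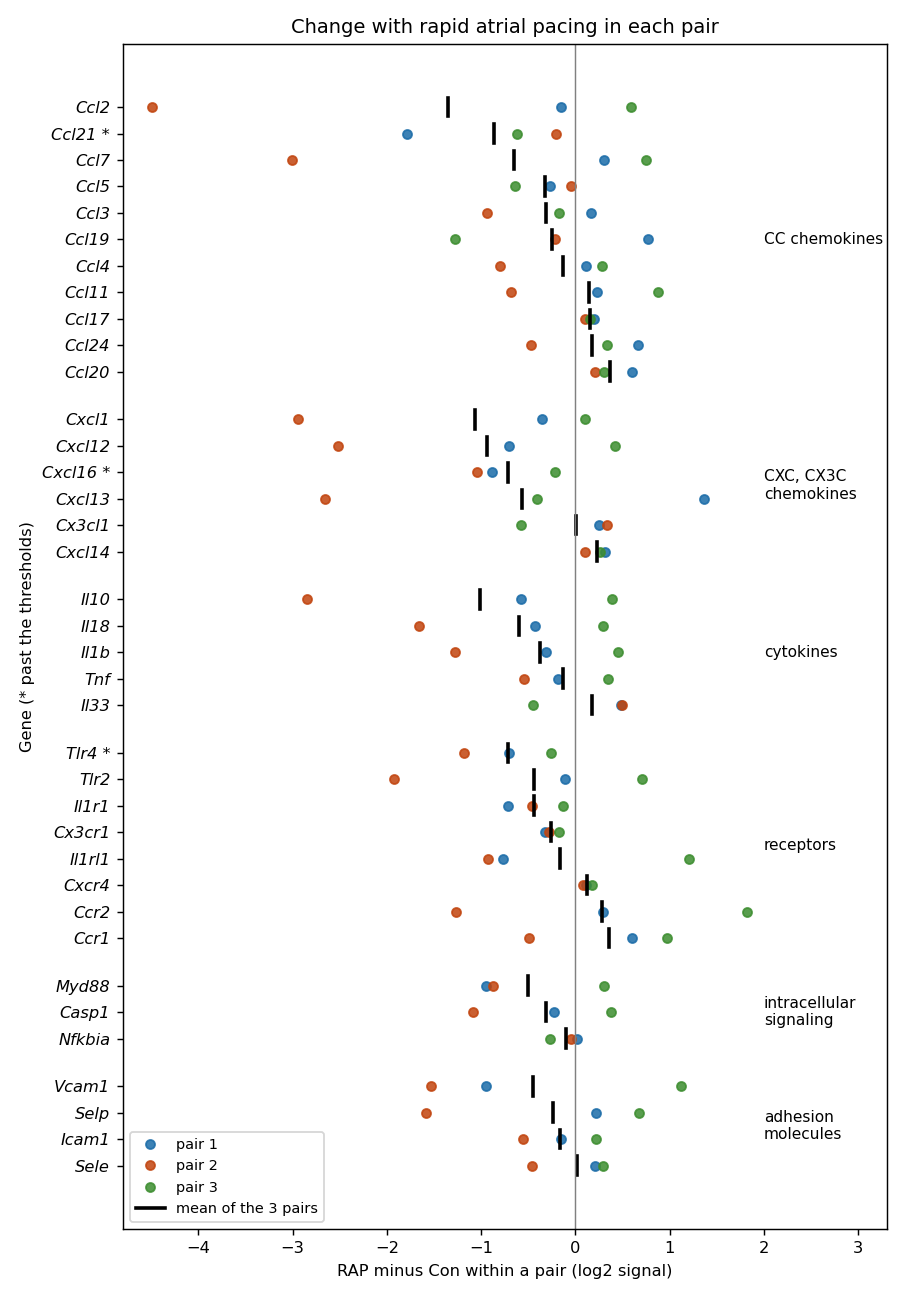
RAP minus Con in each pair (log2 signal, points) and the mean of the 3 pairs (bars) for the 37 measured members, grouped by role, with an asterisk on the 3 that passed the thresholds. Pair 2 lies furthest to the left for most members, from -4.49 for Ccl2 to 0.50 for Il33, and 21 members are lower with RAP in pair 2 and higher in pair 3.

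The direction of the members differed between the pairs. Lower with RAP were 19 members in pair 1, 31 in pair 2 and 12 in pair 3, of 37 each time, beside 50.3%, 51.8% and 48.3% of all genes. More than 1.3-fold lower were 10 members in pair 1 (15.2% of all genes), 26 in pair 2 (22.8%) and 6 in pair 3 (11.5%). More than 1.3-fold higher were 6 in pair 1 (13.1%), 1 in pair 2 (17.7%), namely Il33, and 12 in pair 3 (13.6%). The median change of the members was -0.11, -0.80 and 0.29 in pairs 1, 2 and 3, where that of all genes was -0.0025, -0.019 and 0.013. Of the 37 members, 6 were lower in all 3 pairs (14.1% of all genes) and 4 higher in all 3 (14.3%), both near the share of all genes. Those lower in every pair were Cxcl16, Tlr4, Ccl21, Il1r1, Ccl5 and Cx3cr1, and those higher were Ccl17, Ccl20, Cxcl14 and Cxcr4.

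In pair 2 the control atrium was high. Of 37 members, 22 had their highest value in Con 2, beside 19.2% of all genes, and 0 had their lowest value there. The controls varied more than the RAP atria (larger SD) in 24 of 37 members, beside 45.7% of all genes. The 22 included all 4 adhesion molecules, 4 of 5 cytokines and 6 of 11 CC chemokines. Of these, Sele passed the signal filter only through Con 2, and Il10 only through Con 1 and Con 2. Their place among the 22 is thus in part set by the filter. The mean deviation of the 37 members from their own means was 0.68 in Con 2, between -0.15 and -0.09 in the other controls, and -0.25, -0.33 and 0.13 in RAP 1, 2 and 3. Macrophage markers (18 of 19 measured) had their highest mean deviation in Con 2 as well, at 1.08, and ranged from -0.45 to 1.08 in Con and from -0.60 to 0.20 in RAP. Neutrophil markers (7 of 10) stood at 0.88 in Con 2, markers of T, B and NK cells (12 of 16) at 0.72 and fibroblast markers (9 of 9) at 0.82, each the highest of the 6 atria. Blood endothelium markers (11 of 12) stood at 0.05 in Con 2, within their range of -0.36 to 0.23 over the 6 atria. In tissue RNA, fewer cells of a type and less RNA per cell cannot be told apart, and the part of these cells in the values was not tested.

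**Figure D3:**
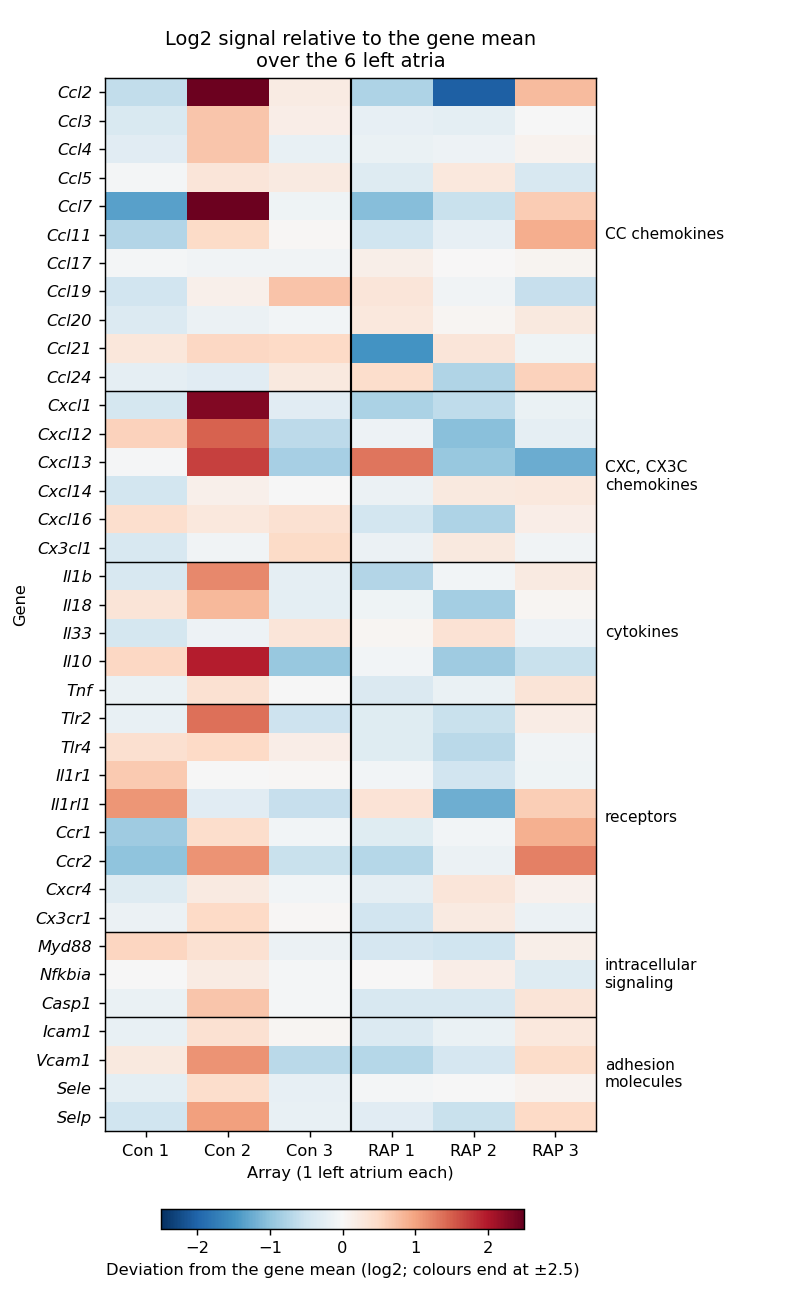
Log2 signal of each of the 37 measured members relative to its mean over the 6 left atria, with controls on the left of the vertical line, RAP on the right, and roles separated by horizontal lines. Con 2 is the reddest column, where 22 members have their highest value, and Ccl2, Ccl7 and Cxcl1 reach deviations above 2 there.

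In 11 of 37 members, Con 2 exceeded the median of the other 5 atria by more than 1 log2 unit, beside 3.22% of all genes. These were the chemokines Ccl2, Ccl7, Cxcl1, Cxcl12 and Cxcl13, the cytokines Il1b and Il10, the receptors Tlr2 and Ccr2, and the adhesion molecules Vcam1 and Selp. Il10 was kept by the signal filter only through Con 1 and Con 2. The excess ranged from 1.31 for Selp to 3.07 for Ccl2, that is from 2.47-fold to 8.42-fold, and the next member, Il18, had 0.92. All 11 were lower with RAP in pair 2, 10 of them were higher in pair 3, 7 were lower in pair 1, and 0 passed the thresholds. Of the 8 in the promoter table, 4 held a kappaB match, namely Ccl7, Cxcl1, Tlr2 and Vcam1, against 4 of the 26 other listed members. Those 26 include Ccl22, Cxcl2, Il1a and Nlrp3, which are not among the 37, and Cxcl2 is one of those with a match. The 11 were picked by their values, and these counts only describe them.

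Among the CC chemokines, Ccl2, which draws monocytes out of the blood, had the widest range of the 37 members. Its log2 signal was 8.94, 12.01 and 9.76 in the controls and 8.79, 7.51 and 10.35 after RAP, so the highest and the lowest atrium both belonged to pair 2. The change was -1.35 (SE 1.04) and by pair -0.15, -4.49 and 0.59, and without pair 2 it was 0.22. Ccl7, a relative of Ccl2 with the same receptor, ran alongside, with 6.97, 10.78 and 8.22 in Con and 7.28, 7.78 and 8.97 in RAP. Leaving out Con 2, the remaining 5 values of Ccl7 spanned 6.97 to 8.98, and RAP 3 was the highest of them. Ccr2, the receptor of both, read 6.09, 8.22 and 6.54 in Con and 6.39, 6.95 and 8.36 in RAP. Con 2 and RAP 3 were the high atria for the receptor, and its change of 0.28 (SE 0.59) joined 0.29, -1.27 and 1.82 in pairs 1, 2 and 3.

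Ccl3 and Ccl4, which attract macrophages and T cells, had changes of -0.31 (SE 0.25) and -0.14 (SE 0.25), with Con 2 the highest atrium of both at 7.15 and 6.34. Ccl5, a ligand of Ccr1, read 8.39, 8.74 and 8.66 in Con and 8.11, 8.69 and 8.03 in RAP, lower with RAP in every pair but by only -0.04 in pair 2. Ccr1, a receptor of Ccl3 and Ccl5, had a change of 0.36 (SE 0.31) and was highest in RAP 3 at 7.03. Ccl11 and Ccl24, which attract eosinophils, had changes of 0.14 (SE 0.32) and 0.18 (SE 0.25), and both were highest in RAP 3. Ccl19, which shares the receptor Ccr7 with Ccl21, did not follow it, with 0.76, -0.22 and -1.28 in pairs 1, 2 and 3 and a change of -0.24 (SE 0.40).

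Cxcl1, the neutrophil chemokine, read 7.24, 9.98 and 7.39 in Con and 6.89, 7.04 and 7.50 in RAP. The other 5 atria fell within 6.89 to 7.50, and Con 2 alone stood away from them. Its change was -1.06 (SE 0.63), of which -0.12 was left without pair 2. Cxcl12, which keeps leukocytes and progenitors in tissue through Cxcr4, read 10.33, 11.21 and 9.09 in Con and 9.62, 8.70 and 9.51 in RAP. It was high in both Con 1 and Con 2 and lower with RAP in pairs 1 and 2, with a change of -0.93 (SE 0.57). Its receptor Cxcr4 varied less, between 7.11 and 7.74, with a change of 0.12 (SE 0.13). Cxcl13, which attracts B cells, read 8.45, 10.18 and 7.64 in Con and 9.82, 7.53 and 7.23 in RAP, and it was high in 1 atrium of each group, Con 2 and RAP 1. Cxcl14, made by epithelial and stromal cells, was higher with RAP by 0.32, 0.11 and 0.26 in pairs 1, 2 and 3 (mean 0.23, SE 0.13).

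Cx3cl1 (fractalkine), which tethers monocytes to endothelium, had a change of 0.00 (SE 0.23), with pair values of 0.25, 0.33 and -0.58. Its receptor Cx3cr1 was lower with RAP by -0.33, -0.28 and -0.17 in pairs 1, 2 and 3, a change of -0.26 (SE 0.13) below the fold threshold.

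Of the 5 measured cytokines, 0 passed and 4 had their highest value in Con 2. Il10, which damps inflammation, read 5.39, 6.84 and 3.93 in Con and 4.81, 3.99 and 4.31 in RAP, above 5 only in Con 1 and Con 2. Its change was -1.01 (SE 0.63), and 0 of the 3 RAP atria reached a signal of 5. Il1b, the secreted form of interleukin-1 made mainly by myeloid cells, read 6.32, 7.94 and 6.51 in Con and 6.01, 6.66 and 6.96 in RAP. After Con 2, the highest Il1b signal was that of RAP 3, and the change was -0.38 (SE 0.35). Il18, which like Il1b is processed to its active form by Casp1, had a change of -0.60 (SE 0.39), with -0.43, -1.66 and 0.29 in pairs 1, 2 and 3. Tnf spanned 5.34 to 6.09 over the 6 atria and had a change of -0.13 (SE 0.21). Il33, an alarmin held in the nuclei of stromal and endothelial cells, went the other way in pairs 1 and 2, at 0.48, 0.50 and -0.45. Its receptor Il1rl1 read 7.98, 6.59 and 6.29 in Con and 7.21, 5.66 and 7.49 in RAP, highest in Con 1 and lowest in RAP 2.

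Tlr2, the receptor of bacterial lipoproteins, read 5.85, 7.41 and 5.51 in Con and 5.73, 5.48 and 6.22 in RAP and was high in Con 2 alone. Its change was -0.44 (SE 0.52, 95% confidence interval -1.80 to 0.91), an interval that holds the change of Tlr4, and it was 0.30 without pair 2 and 0.13 with Con 2 alone left out. Tlr4 in Con 2 exceeded the median of the other 5 atria by 0.58, and with Con 2 left out it still fell (-0.64).

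Inside the cell, Myd88, the adaptor of Tlr2, Tlr4 and Il1r1, read 8.61, 8.46 and 7.93 in Con and 7.67, 7.58 and 8.24 in RAP. Pairs 1 and 2 were lower with RAP by nearly a full unit and pair 3 was higher, at -0.94, -0.88 and 0.30, and the change of -0.51 (SE 0.29) did not pass. Nfkbia, the NF-kappaB inhibitor that NF-kappaB itself induces, varied little, with 9.90, 10.11 and 9.84 in Con and 9.91, 10.06 and 9.57 in RAP. Its change of -0.10 (SE 0.14) had a 95% confidence interval of -0.46 to 0.26. Casp1, the protease of the inflammasome, read 7.31, 8.17 and 7.42 in Con and 7.08, 7.09 and 7.79 in RAP, with a change of -0.31 (SE 0.30).

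The adhesion molecules, which endothelium displays to rolling leukocytes, were all lower with RAP in pair 2 and all higher in pair 3. Vcam1, the partner of the integrin of monocytes and lymphocytes, read 9.12, 10.003 and 8.21 in Con and 8.17, 8.47 and 9.34 in RAP. Con 2 was highest and RAP 3 came next, and the pair values of -0.95, -1.53 and 1.12 gave a change of -0.45 (SE 0.54). Selp (P-selectin), which starts the rolling of leukocytes, read 5.47, 6.99 and 5.79 in Con and 5.68, 5.40 and 6.46 in RAP, with a change of -0.23 (SE 0.46) that was 0.44 without pair 2. Icam1, the partner of the neutrophil integrins, spanned less, with 7.92, 8.49 and 8.17 in Con, 7.77, 7.94 and 8.38 in RAP and a change of -0.16 (SE 0.19). Sele (E-selectin) exceeded 5 only in Con 2, at 5.07, and its change was 0.01 (SE 0.20).

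In each of the 4 roles the median change was lowest in pair 2 and highest in pair 3. The median change of the ligands was 0.14, -0.74 and 0.27 in pairs 1, 2 and 3, that of the receptors -0.22, -0.71 and 0.44, that of the intracellular signaling genes -0.23, -0.88 and 0.30, and that of the adhesion molecules 0.02, -1.04 and 0.48. Averaged over the pairs first, the medians were -0.32, -0.21, -0.31 and -0.20 for the 4 roles, and -0.26 for the 37 members together, beside -0.01 for all genes. Below 0 were the changes of 26 of 37 members and 51.2% of all genes. With Con 2 left out and no pairing, 20 of 37 were below 0 with a median of -0.01, Cxcl16 and Tlr4 fell and Ccl20 rose. Without pair 2 as a whole, 15 of 37 were below 0 with a median of 0.07, Ccl21 fell and the chemokine receptors Ccr1 and Ccr2 rose.

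**Figure D4:**
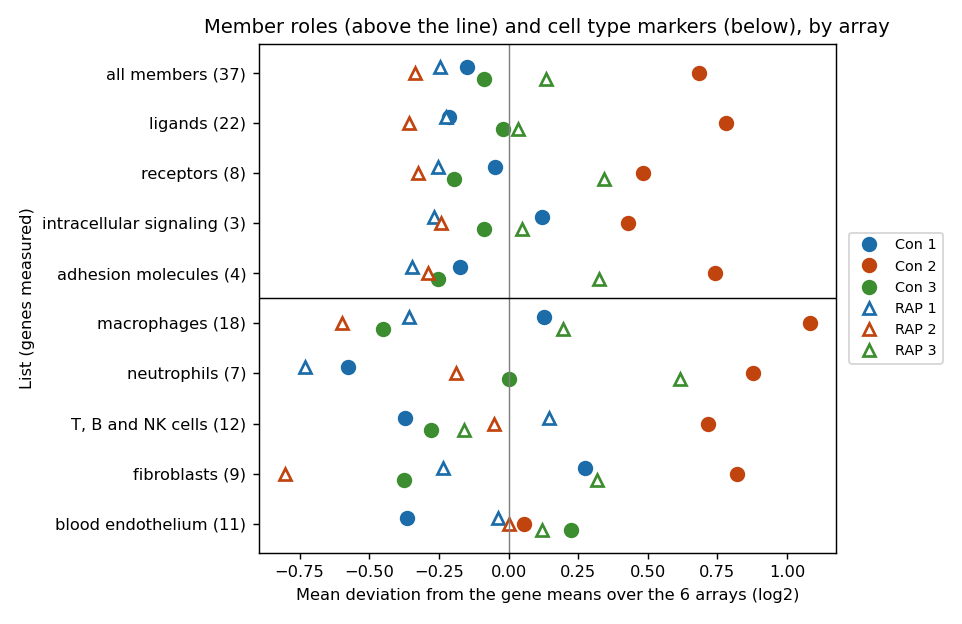
Mean deviation of log2 signal from the gene means over the 6 arrays, for the members by role (above the line) and for 5 lists of cell type markers (below it), with filled circles for Con, open triangles for RAP and colour for the pair. Con 2 is furthest to the right in every list but blood endothelium, at 0.68 for all members and 1.08 for macrophages.

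The endotoxin receptor does not work alone, and its partners were among 115 further genes of these pathways, of which 86 were measured. Of the 86, 8 fell and 0 rose, beside 3.45% and 2.94% of all genes, with a median change of -0.12. Their highest value was in Con 2 for 40 of the 86, beside 19.2% of all genes. The 40 include Il1r2, which passed the signal filter only through Con 2 (5.78). The 8 comprised 1 of 14 other chemokines (Pf4), 2 of 9 other Toll-like receptors and cofactors (Lbp and Ly96), 2 of 11 genes of the IL-1 and TNF receptor systems (Il10ra and Tnfrsf1a), 1 of 14 adaptors and kinases (Ripk1), 1 of 9 NF-kappaB factors and inhibitors (Nfkbiz) and 1 of 11 leukocyte adhesion partners (Selplg). Of 11 other chemokine receptors and 7 inflammasome partners, 0 passed. The groups of all 8 that fell did not overlap, but the 8 were picked by thresholds on the same values, which favors separation. Groups also did not overlap for Il18bp, Il10rb, Rela and Tnip1 (RAP lower) and for Ackr2, Map3k7, Tbk1 and Nek7 (RAP higher). The shares of all genes without overlap were 7.85% with RAP lower and 7.57% with RAP higher.

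Lbp, which carries endotoxin to its receptor, read 12.02, 12.64 and 11.48 in Con and 10.80, 10.76 and 10.56 in RAP. The 3 RAP atria (10.71 ± 0.13, SD, n = 3) were close to each other and below every control (12.05 ± 0.58, SD, n = 3), and the change was -1.34 (SE 0.22, 95% confidence interval -1.92 to -0.76). Cd14, which takes the endotoxin from Lbp, read 9.69, 10.39 and 8.80 in Con and 9.03, 7.97 and 9.72 in RAP, and with -0.66, -2.42 and 0.91 by pair its change of -0.72 (SE 0.64) did not pass. Ly96 (MD-2), the subunit of Tlr4 that holds the endotoxin, read 8.46, 8.57 and 7.54 in Con and 7.44, 6.80 and 7.15 in RAP, a change of -1.06 (SE 0.29, 95% confidence interval -1.81 to -0.31). Lbp, Ly96 and Tlr4 were thus lower with RAP in all 3 pairs, while Cd14 and Myd88 were higher in pair 3.

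Pf4, a chemokine stored in platelets and also made by macrophages, fell by 1.16 (SE 0.19, 95% confidence interval -1.65 to -0.67), from 8.88, 9.19 and 9.36 in Con to 8.14, 7.75 and 8.05 in RAP. Smaller falls were those of Nfkbiz, an NF-kappaB cofactor (change -0.80, SE 0.29), Tnfrsf1a, the main receptor of TNF (-0.73, SE 0.26), Ripk1, a kinase that acts below it (-0.65, SE 0.23), Selplg, the leukocyte ligand of P-selectin (-0.57, SE 0.21), and Il10ra, a subunit of the Il10 receptor (-0.52, SE 0.17). Of the 8, only Lbp and Pf4 passed by the methods' t-test or without pair 1, and only Lbp, Ly96 and Pf4 did without pair 2. Of all 86, 21 fell without pair 3 (22.1% of all genes passed in either direction) and, in fits without the pairing, 5 fell without Con 2 (4.57%) and 17 without Con 3 (15.4%).

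**Figure D5:**
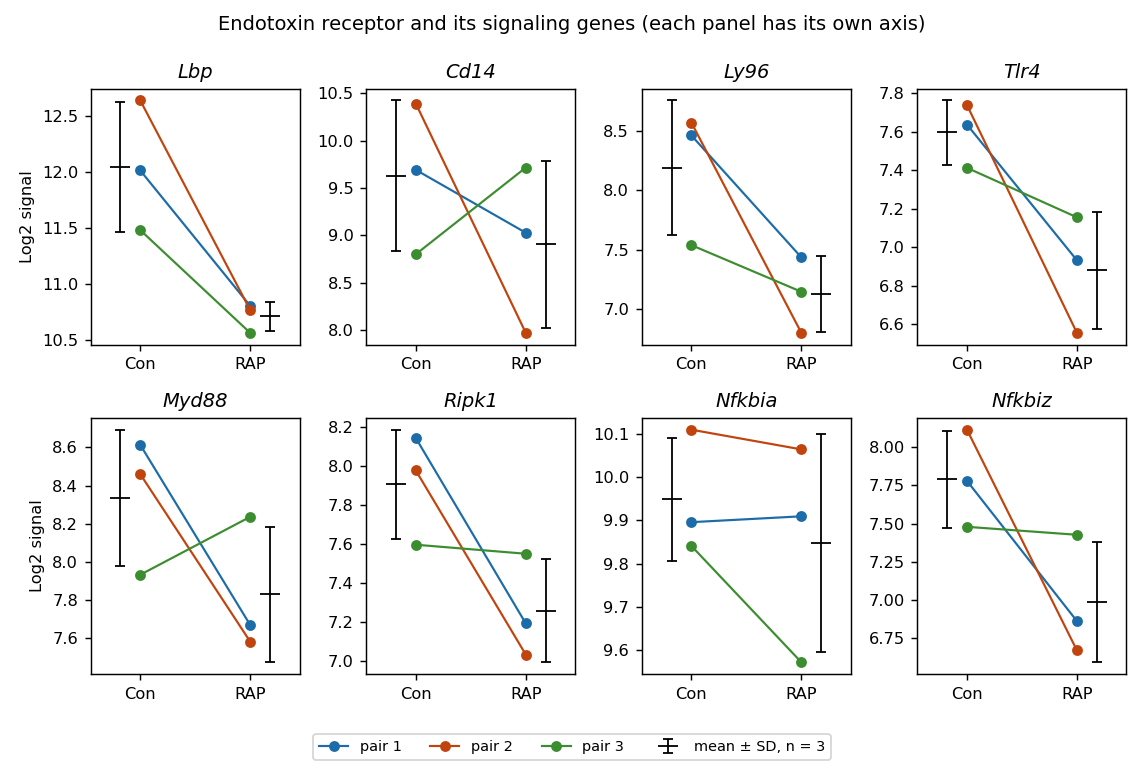
Log2 signal of Tlr4, its cofactors Lbp, Cd14 and Ly96, and 4 genes that act below it, on the 6 arrays, with lines joining the rats of a pair and bars giving the mean ± SD of 3 arrays beside each group. Lbp, Ly96, Tlr4, Ripk1 and Nfkbiz are lower with RAP in all 3 pairs with no overlap of the groups, and Cd14 and Myd88 are higher with RAP in pair 3.

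Markers of other cells stood beside these falls as follows. Of all genes, 3.45% fell. Mesothelial markers (8 of 10 measured, 3 of them fallen) had mean deviations of -0.08 to 0.87 in Con and -0.47 to -0.24 in RAP, which did not overlap. The ranges of lymphatic endothelium markers, given with Ccl21, were separated only narrowly (lowest -0.045 in Con, highest -0.059 in RAP), and the 5 markers differed. Pdpn fell (-0.53), Lyve1 (-0.29) and Flt4 (-0.46) had changes below 0, and Prox1 (0.18) and Reln (0.02) had changes above 0. The ranges of macrophage markers, given with Con 2, overlapped. Of the macrophage markers 1, the complement receptor Vsig4, fell (-1.50, SE 0.49). The part of these cells in these values was not tested.

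As a check of the tissue, the atrial genes Nppa and Myl7 had log2 signals of 13.40 to 13.59 and 13.61 to 13.76 on the 6 arrays. The arrays had similar medians (5.82 to 5.85), with 62.6% to 63.8% of probe sets above 5. Ventricular and erythroid markers stood out in Con 3, at mean deviations of 1.36 and 2.06, and adipocyte markers in RAP 3, at 1.13. Of the ventricular markers, Myl2 (8.60), Myl3 (10.90), Irx4 (5.29) and Hey2 (5.63) were highest in Con 3, but Hand1 (5.68) was not. Myl2 passed the signal filter only through Con 3, so the ventricular value there is in part set by the filter. Mast cell markers ranged from -1.25 in RAP 2 to 0.93 in Con 1, and dendritic cell markers from -0.16 to 0.13. Of the atrial cardiomyocyte markers 2 of 9 rose, and of the adipocyte markers 4 of 9, beside 2.94% of all genes. None of these passed after adjustment.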

How the data were processed

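RNA from the left atria of 6 rats had been hybridized to 1 rat whole-transcript array each. Each deposited value is the log2 signal of a probe set. The authors used RMA in Partek, which corrects background, normalizes the arrays by quantiles and summarizes probes (the version is not given in the sources used here). They were used as deposited. Of 29214 probe sets, 15310 carry 1 symbol, 323 several and 13581 none. Probe sets above 5 on at least 1 array were kept (19907, giving 11237 genes), and a gene is its probe set of highest mean. No coordinates of probe sets are given.

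RAP was compared with Con by limma 3.58.1 in R 4.3.3 over all kept probe sets, with the pair as a block and Benjamini-Hochberg adjustment, and the code was tested on simulated data. The thresholds (unadjusted p under 0.05, fold above 1.3) are the methods'. The paper states that the rats of a pair were paced together, but the labels number only the replicates of each group. Rats of equal number were taken as a pair, and all values by pair rest on that assumption. As a check of the pairing, deviations from group means correlated between the rats of a pair at 0.22, -0.24 and -0.32. The values for pairs 2 and 3 are negative, so the check gave no support to the match by number. The paper states that a principal component analysis, not shown there, found its own pairs to be alike. The members, the 115 pathway genes and the cell type markers were chosen with earlier results of these data known. Values on each array are given for members past the thresholds, the 3 of each role with the largest change, and members whose groups did not overlap, plus others picked after their values were seen, such as those high in Con 2. Of the pathway genes, those past the thresholds are named. Cd14, Il1r2 and those whose groups did not overlap were added after their values were seen. Alternatives were no block, the methods' t-test, a variance trend with robust moderation, array weights, no or a stricter filter (mean above 6), the mean of a gene's probe sets, recentring, quantile and cyclic loess normalization, and leaving out each pair or array. The number of arrays limits the precision.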

Additional observations from a re-analysis of the deposited data

How the results depend on the processing

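Of 19 alternatives, Tlr4 passed in 16, Cxcl16 in 13 and Ccl21 in 4, and all 3 stayed below 0 in all 19. In place of 3 members lower and 0 higher with RAP, array weights gave 9 and 4 and the methods' t-test 0 and 0, and leaving out a pair or an array gave 0 to 10 lower (6 without Con 3) and 0 to 2 higher. The fit with no replicate block gave 2 lower (Cxcl16 and Tlr4) and 0 higher, with 870 genes called in place of 718. All genes called were 234 by the t-test, 2650 with array weights, and 164, 378 and 2488 without pairs 1, 2 and 3, and with single arrays left out 408 without Con 1 and 1731 without Con 3. In place of 8 pathway genes lower and 0 higher, array weights gave 23 and 2, the t-test 2 and 0, a further quantile normalization 7 and 1, and leaving out a pair or an array 2 to 21 (5 without Con 2, 17 without Con 3) and 0 to 3. Without pair 2 the sign of 13 of 37 members turned (4 each without pair 1 or pair 3), and without Con 2 alone that of 8. Among members past the thresholds, with the largest changes of their role or with groups that did not overlap, those with a positive value without pair 2 and a negative one without pair 3 were Ccl2 (0.22, -2.32), Tlr2 (0.30, -1.02), Casp1 (0.073, -0.66), Icam1 (0.031, -0.35), Vcam1 (0.086, -1.24) and Selp (0.44, -0.69). Among them the sign also turned without Con 2 for Tlr2 (0.13) and Selp (0.22), with array weights for Selp (0.048) and without RAP 3 for Nfkbia (0.038). The cause was not tested. The medians by role ranged over the alternatives from -0.56 to 0.04 for ligands, -0.54 to 0.18 for receptors, -0.66 to -0.04 for intracellular signaling and -0.52 to 0.17 for adhesion molecules, and those of ligands, receptors and adhesion molecules were above 0 without pair 2. With 3 pairs, a change whose confidence interval holds 0 cannot be told from none, and Sele and Il10 lay near the lower limit of signal.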
